A study of Rattus norvegicus with 14 samples.

Results

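The miR-181 family on the islet arrays comprised 5 of the 350 rat microRNA (miRNA) rows, named rno-miR-181a, rno-miR-181b, rno-miR-181c, rno-miR-181d and rno-miR-181a*, the last a minor strand (the species prefix rno is dropped below where no confusion arises). They were chosen by name alone, as every row whose name without arm or star is one of these members. Pancreatic islets came from control female rats (4 arrays) and from female rats on day 14 of gestation (4 arrays), and the comparison asked which islet miRNAs change in pregnancy. The labels give neither the strain nor the age of the rats and name no agent for either group, and each array is called a biological replicate without saying how many rats it drew on, so the p-values cover only how far these arrays spread. The summed signal of all miRNAs ran from 148467 to 229760 per array, and 157 to 188 miRNAs were flagged as detected, among them on all 8 arrays the islet markers miR-375 and miR-7a. The second experiment of the series, messenger RNA arrays of INS832/13 cells, holds no islet miRNA measurement and was not used here.

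MicroRNAs are short RNAs that guide repressor complexes to messenger RNAs, and the bases near their 5′ end, the seed, do most of the recognition. The miR-181 family is best known from lymphocyte development, where miR-181a tunes the sensitivity of the T cell receptor, and it is also studied in endothelium and brain. An islet preparation holds endocrine cells together with vessels, connective tissue, resident leukocytes and remnants of acinar tissue, so a miRNA in it can come from any of them.

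The mature sequences are shown because the members differ by so few bases that their probes could bind each other's targets, which was not tested. They are credited to RefSeq on assembly GRCr8, in which all 4 members matched by name. Capitals mark the seed, bases 2 to 8, and the array's unstarred names are taken as the 5p arm.
miR-181a-5p: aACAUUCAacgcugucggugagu
miR-181b-5p: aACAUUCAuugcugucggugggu
miR-181c-5p: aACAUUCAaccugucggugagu
miR-181d-5p: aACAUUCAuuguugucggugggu

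All 4 carried the seed ACAUUCA, which none of the other mature miRNAs among 693 names in the RefSeq table held at bases 2 to 8. MiR-181a and miR-181c were identical at 22 of 23 aligned positions, the difference being 1 base that miR-181c lacks. Counted from 1 at the 5′ end of miR-181a, miR-181b differed from it by A9U, C10U and A21G. MiR-181d differed from miR-181b by C12U alone, so the sequences fall into a miR-181a and miR-181c pair and a miR-181b and miR-181d pair. The genes lie at 3 loci with 2 hairpins each. The miR-181a sequence is encoded at both chr13:52037081-52037103 (gene Mir181a-1) and chr3:43025601-43025623 (gene Mir181a2), plus strand, so its signal cannot be assigned to either gene. MiR-181b lies at chr13:52037263-52037285, and the hairpin of Mir181b2 beside Mir181a2 also holds its sequence. The chromosome 13 hairpins are 61 bases apart within the span of a long noncoding RNA gene, and the chromosome 3 hairpins, 986 bases apart, lie within the spans of Nr6a1, an orphan nuclear receptor gene, and of a long noncoding RNA gene. MiR-181c (chr19:40888314-40888335) and miR-181d (chr19:40888484-40888506) come from hairpins 77 bases apart with no annotated gene spanning both.

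Of the 5 rows, 2 were detected on any array. The row rno-miR-181a was flagged as detected on 8 of 8 arrays. The row rno-miR-181c was detected on 4 of 4 control arrays but on 2 of 4 pregnant arrays, replicates 3 and 4, so its level in pregnant replicates 1 and 2 is only a bound. The rows rno-miR-181b, rno-miR-181d and rno-miR-181a* were detected on none of the 8 arrays. The normalised signal used below is the deposited signal scaled so that all arrays share the same 75th percentile over the 153 miRNAs detected everywhere.

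**Figure D1:**
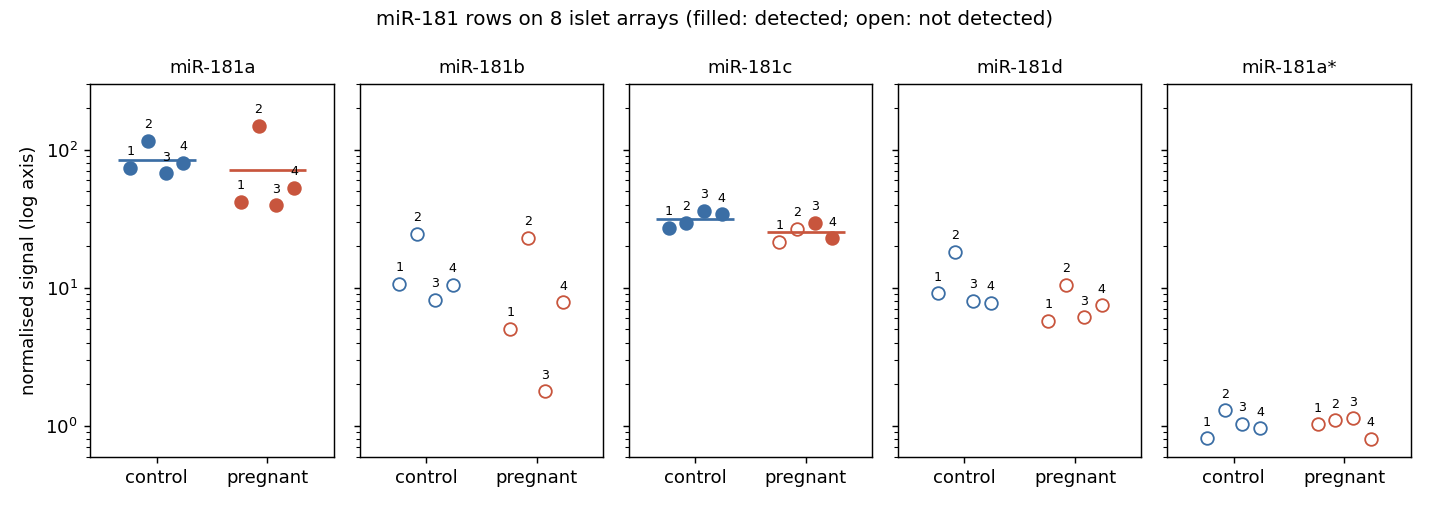
Normalised signal (log axis) of the 5 miR-181 rows on each of 4 control (blue) and 4 pregnant (red) islet arrays, numbered by replicate, filled where detected and open where not, with group means as lines for the 2 detected rows. MiR-181a in pregnant replicate 2 stands at 149 while the other pregnant arrays lie between 39.5 and 52.9.

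MiR-181a supplied the larger part of the family's probe signal, summed over all 5 rows. In control islets 59.5% ± 2.44 (SD, n = 4) of the summed miR-181 signal came from it, and in pregnancy 58.7% ± 8.62 (SD, n = 4). MiR-181c made up 23.3% ± 6.01 and 26.0% ± 10.4 (SD, n = 4 each). The rows detected on no array are part of this sum. On average miR-181b gave 9.09% of it in control and 7.11% in pregnant islets, miR-181d 7.41% and 7.17%, and miR-181a* 0.73% and 1.06%. These are shares of probe signal, not of molecules, because probes differ in response. The share of miR-181a was 70.8% in pregnant replicate 2 and 50.6% to 57.6% in the other pregnant arrays. As a share of the signal of all 350 miRNAs, miR-181a came to 0.0448% ± 0.0104 in control and 0.0389% ± 0.0297 in pregnant islets (SD, n = 4 each), and miR-181c to 0.0169% ± 0.00208 and 0.0137% ± 0.00202 (SD, n = 4 each).

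On the normalised scale rno-miR-181a read 74.1, 116, 67.4 and 80.6 in control replicates 1 to 4 and 42.0, 149, 39.5 and 52.9 in pregnant replicates 1 to 4. Pregnant replicates 1, 3 and 4 lay below every control array, while pregnant replicate 2 was the highest of all 8, so the groups overlapped. The group means were 84.4 ± 21.4 and 70.8 ± 52.2 (SD, n = 4 each). Its log2 change, pregnant minus control, was -0.46 (SE 0.42, 95% confidence interval -1.45 to 0.53, limma adjusted p = 0.553, exact permutation p = 0.4), which did not pass the threshold of 0.05. The SD of its log2 signal was 0.34 among control and 0.89 among pregnant arrays. Of the 171 tested miRNAs, 93.6% had a lower SD among the pregnant arrays.

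The call on miR-181a turned on pregnant replicate 2. Each of the 8 arrays was left out in turn, and without that array its log2 change was -0.89 (SE 0.20, limma adjusted p = 0.0375), in which case the remaining 3 pregnant arrays were all below the 4 control arrays. Of the other omissions, that of control replicate 2 brought it nearer to 0, to -0.30 (limma adjusted p = 0.835). So did those of pregnant replicates 1, 3 and 4, to -0.29 (limma adjusted p = 0.751), -0.26 (limma adjusted p = 0.795) and -0.40 (limma adjusted p = 0.696). The fit without pregnant replicate 2 called 19 of 171 miRNAs (11.1%), 13 of them lower (7.6%). Without that array 49 miRNAs (28.7%) had groups that did not overlap, 31 of them (18.1%) lower in pregnancy. Over all 8 arrays 8 miRNAs were called (4.68%) and 25 had no overlap (14.6%). The array names in the file header share a long number and end in digits. They are read here as 1 slide with 2 rows, which neither the header nor the labels state. By that reading row 1 held 3 pregnant arrays and 1 control, and row 2 held 1 pregnant array and 3 controls. Within rows 1 and 2 miR-181a differed by -0.77 and -0.81, and with the row as a block by -0.79 (SE 0.46, limma adjusted p = 0.263).

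On the normalised scale rno-miR-181c read 27.3, 29.4, 36.0 and 34.0 in control replicates 1 to 4 and 21.4, 26.7, 29.5 and 22.9 in pregnant replicates 1 to 4. Pregnant replicate 3 lay above control replicates 1 and 2, so these groups overlapped too, but 3 of 4 pregnant arrays were below all controls. Its means were 31.7 ± 4.05 and 25.1 ± 3.67 (SD, n = 4 each, 2 of the pregnant arrays not detected). The log2 change was -0.34 (SE 0.13, 95% confidence interval -0.65 to -0.02, limma adjusted p = 0.161, exact permutation p = 0.0857) and did not pass, although the unadjusted p was 0.0378, as it was under 0.05 for 42 of 171 miRNAs (24.6%). Within slide rows 1 and 2 the difference was -0.17 and -0.59. Without pregnant replicate 2 it was -0.37 (SE 0.15, limma adjusted p = 0.154), against -0.34 with it. MiR-181c was also dim: 7 negative control features had a highest normalised signal of 20.7 to 74.7 per array, and only on control replicate 3 did miR-181c exceed all 7. MiR-181a exceeded all 7 on the control arrays and pregnant replicate 2, and 6 of 7 on the other pregnant arrays.

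So 0 of the 2 tested miR-181 rows passed with limma over all 8 arrays, 1 had an unadjusted p under 0.05, and their median log2 change was -0.40 against -0.02 over all 171 miRNAs, of which 4.68% were called, 2.34% higher and 2.34% lower. The plot of settings gives both changes under each fit that was run.

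**Figure D2:**
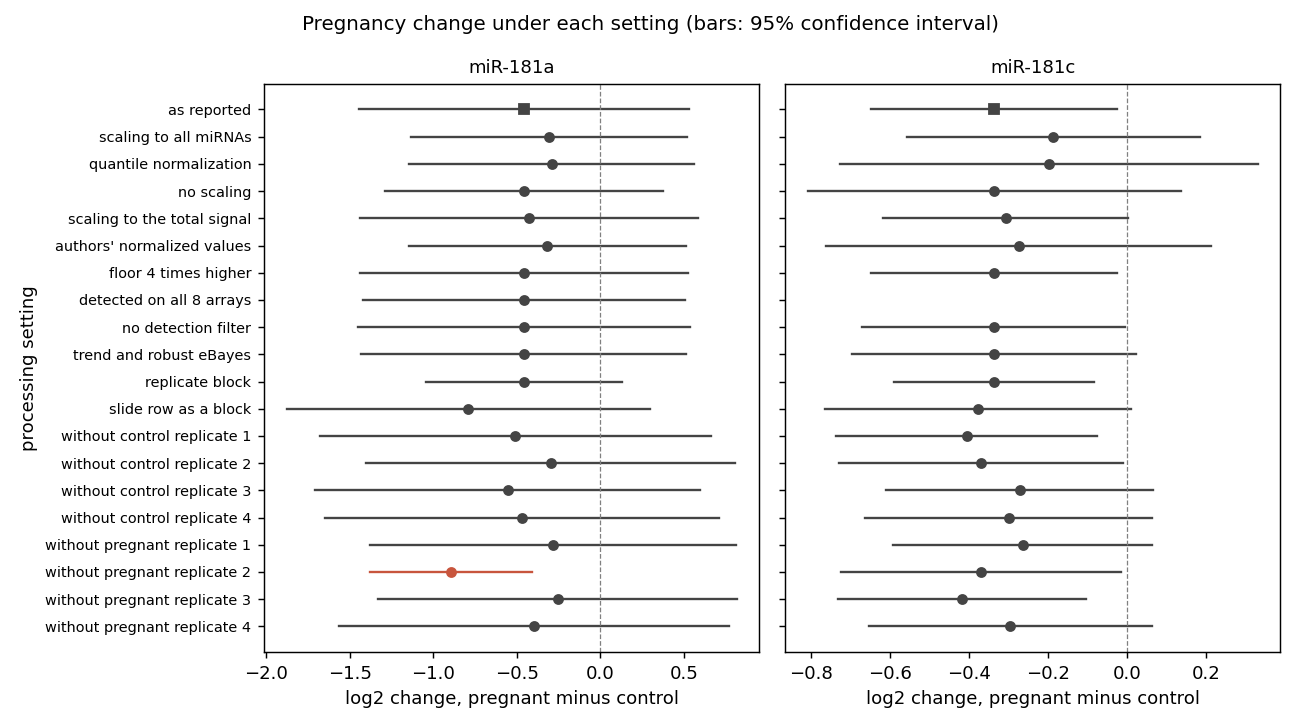
Log2 change in pregnancy (points; the square is the reported fit) with 95% confidence intervals for miR-181a and miR-181c under each processing setting, red where the limma adjusted p is under 0.05. All points lie below 0, and 1 is red: miR-181a without pregnant replicate 2, at -0.89.

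The rows that were not detected gave signals too low for a fold. The normalised signal of rno-miR-181b ran from 8.16 to 24.6 in control and from 1.78 to 22.9 in pregnant islets, with its highest values on control replicate 2 and pregnant replicate 2, the arrays on which miR-181a was also highest. That of rno-miR-181d ran from 7.81 to 18.2 in control and from 5.80 to 10.5 in pregnant islets and was likewise highest on those arrays within each group. On control replicate 2 only 2 of the 7 negative control features read below miR-181b, and on pregnant replicate 2 only 1 did. MiR-181a*, the strand that is usually degraded when the hairpin is processed, stood at the deposited minimum of 1 on all 8 arrays, as did 102 of the 350 miRNAs.

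No relation between miR-181a and miR-181c was detectable over the arrays. Their log2 signals had a Pearson's r of 0.29 (exact permutation p = 0.479) and a Spearman's rho of 0.12 (exact permutation p = 0.793). Without the 2 arrays farthest from the median of miR-181a, pregnant replicates 2 and 3, r was 0.64. This correlation was chosen after the data were seen, because no second member was detected on all 8 arrays, and 2 of the 8 miR-181c values in it are bounds.

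By Pearson's r over all 8 arrays, the miRNAs whose pattern was most like that of miR-181a, among 152 others detected on all 8, were miR-199a-3p, miR-199a-5p and miR-497. The median r of the 152 was -0.10, and no p is given because these 3 were picked as the highest. MiR-199a-3p and miR-199a-5p are the strands of a hairpin expressed in fibroblasts and other mesenchymal cells, and miR-497 belongs to the miR-15/16 seed family. MiR-199a-3p had an r of 0.99 and a rho of 1, so it put the 8 arrays in the same order as miR-181a.

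MiR-199a-3p read 175, 279, 141 and 201 in control replicates 1 to 4 and 102, 356, 92.2 and 128 in pregnant replicates 1 to 4. As for miR-181a, pregnant replicate 2 was highest and pregnant replicates 1, 3 and 4 were below all controls. Its r with miR-181a was 0.99 over deviations from the group means, 0.99 without pregnant replicate 2 and 0.98 without the 2 arrays farthest from the median. MiR-199a-5p had an r of 0.96 (rho 0.95, and 0.93 without those 2 arrays) and miR-497 one of 0.90 (rho 0.95, and 0.97 without them). The order depended on the arrays used: miR-27a, at rank 4 over all 8 arrays with an r of 0.89 and named after its values were seen, had an r of 0.997 without those 2 arrays and 0.991 without pregnant replicate 2, above the 3 others in both. None of the 3 passed over all 8 arrays, with log2 changes of -0.42 (SE 0.44, limma adjusted p = 0.600) for miR-199a-3p, -0.30 (SE 0.45) for miR-199a-5p and -0.63 (SE 0.23) for miR-497. Without pregnant replicate 2 miR-497 fell by 0.84 on the log2 scale (SE 0.15, limma adjusted p = 0.0237), where 13 of 171 miRNAs (7.6%) were called lower. MiR-199a-3p stood at -0.86 (SE 0.24, limma adjusted p = 0.0722) and did not pass. Both were picked for their likeness to miR-181a over these arrays, so changes like its own follow from that choice and are no separate result.

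**Figure D3:**
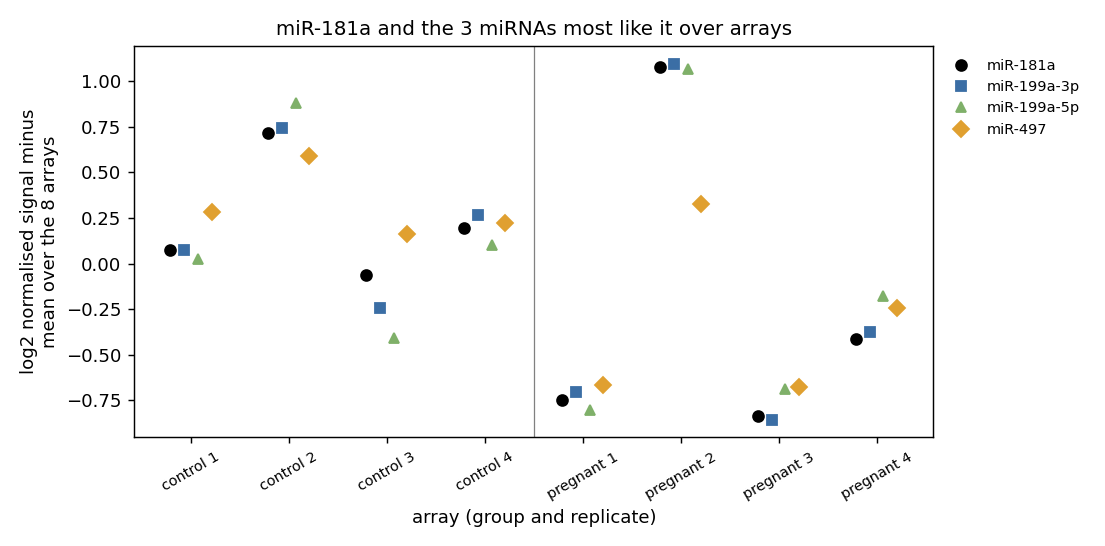
Log2 normalised signal of miR-181a and the 3 miRNAs most like it, minus each miRNA's mean over the 8 arrays, by array. The points of miR-181a and miR-199a-3p (r = 0.99) lie side by side on each array, highest in pregnant replicate 2 and lowest in pregnant replicate 3.

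MiR-181c had a different order, with let-7i, a member of the let-7 family, as the miRNA most like it (r = 0.89, rho = 0.93, chosen after its values were seen, with 2 of the 8 miR-181c values being bounds). Its r with miR-199a-3p was 0.23. At the other end, miR-107, also chosen after its values were seen, ran most against miR-181a (r = -0.95, rho = -0.90), over a narrow range of 973 to 1103 in normalised signal. All these values share each array's scaling factor, whose part in the likeness was not tested.

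The arrays on which miR-181a was high or low also differed in miRNAs of other cell types. The summed signal of the 7 leukocyte miRNAs detected, of 8 listed, was 872 to 1133 in control islets, 697 to 887 in pregnant replicates 1, 3 and 4, and 5493 in pregnant replicate 2. MiR-142-3p, a miRNA of blood cells, read 3702 in that array and 154 to 362 in the other 7. MiR-150, abundant in mature lymphocytes, read 497 against 26.6 to 77.1, and miR-142-5p was detected on that array alone. So miR-142-3p made up most of that sum. Of the other leukocyte miRNAs, miR-146a read 351 there against at most 254 elsewhere, miR-342-3p 344 against at most 328, and miR-146b 48.5, below the 53.5 of pregnant replicate 4.

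Other marker lists also differed between the arrays. The 7 stromal and smooth muscle miRNAs summed to 1551 to 7052 in control and 936 to 1860 in pregnant islets, with the highest sums of each group in control replicate 2 and pregnant replicate 2. MiR-143, a miRNA of smooth muscle, gave 6189 of the 7052 in control replicate 2. The list also holds miR-199a-3p and miR-199a-5p, named above as most like miR-181a. Over the arrays of both groups only these 2 of the 7 were highest in pregnant replicate 2. MiR-152 of the list was highest on neither array within its group, with 155 against 166 among control and 148 against 183 among pregnant arrays. The acinar miR-216a read 26.4 and 25.9 in pregnant replicates 1 and 3, where miR-181a was lowest, and 114 to 312 in control islets. In pregnant replicates 2 and 4 it read 242 and 192, although miR-181a in pregnant replicate 4, at 52.9, was below all controls. The acinar miR-217 was not detected. The 2 endothelial miRNAs summed to 1662 to 1776 in control islets, to 1736 in pregnant replicate 2 and to 1280 to 1470 in the other pregnant arrays. The 4 beta-cell and endocrine miRNAs detected, of 5 listed, summed to 28469 to 34065 in control and 24711 to 31852 in pregnant islets, lowest in pregnant replicate 2. MiR-375, their defining marker, had an r of -0.59 with miR-181a, and of -0.29 without pregnant replicate 2. The others of that list differed: the r was -0.58 for miR-7a, -0.56 for miR-153 and -0.02 for miR-7b. Without pregnant replicate 2 these were -0.10, -0.62 and 0.42. MiR-184 of that list was not detected. The erythroid pair miR-451 and miR-144 summed to 266 to 732 in control and 651 to 1653 in pregnant islets, highest in pregnant replicate 4 and not in replicate 2. The part of these cell types in the miR-181a values was not tested, and in whole islet preparations fewer cells of a type and less RNA per cell cannot be told apart.

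**Figure D4:**
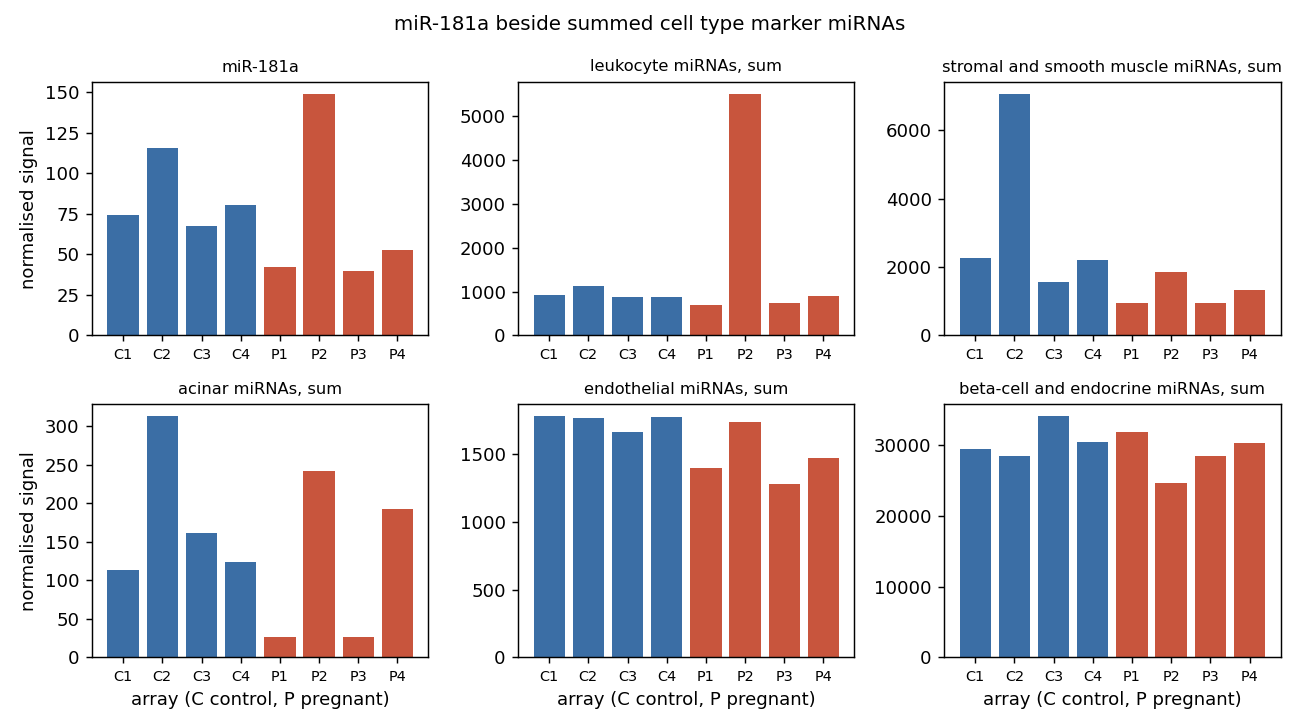
Normalised signal of miR-181a and summed normalised signal of marker miRNAs of 5 cell types on the 4 control (C, blue) and 4 pregnant (P, red) arrays. Pregnant replicate 2 is highest for miR-181a (149) and for the leukocyte sum (5493), while the stromal sum peaks in control replicate 2 (7052).

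MiRNAs known from the lymphoid and vascular settings in which miR-181 is studied gave no call over all 8 arrays. Of the 13 listed, 9 were tested, 0 rose and 0 fell, 4 had a positive and 5 a negative log2 change, and the median was -0.03 against -0.02 over all 171, of which 4.68% were called. MiR-92a of the miR-17/92 cluster had a log2 change of 0.18 (SE 0.40), miR-223, a myeloid miRNA, one of 0.14 (SE 0.43) and miR-146a, induced in inflammation, one of -0.07 (SE 0.25). Each of these was highest in pregnant replicate 2, at 426, 239 and 351. Without that array the median of the list was -0.32 against -0.03 over all 171. The list's summed signal was highest on that array, so leaving it out tends to lower this median, which is no separate result. Of the 9, 1 passed, where 19 of 171 (11.1%) did: endothelial miR-126 fell by 0.34 on the log2 scale (SE 0.07, limma adjusted p = 0.0358). The other endothelial miRNA, miR-126*, stood at -0.15 (SE 0.15, limma adjusted p = 0.519). MiR-150 then stood at -0.74 (SE 0.22, limma adjusted p = 0.0722) and did not pass.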

How the data were processed

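For each miRNA and islet array, the deposited table holds a signal intensity without normalization, a detection flag, and log2 values that the authors normalized, per the file headers. How the slide was scanned is not given in the sources here. Array names in the header tie columns to samples, and the deposited log2 values recur in the series matrix (largest difference 4e-10). Each array was scaled to a common 75th percentile, taken over the 153 miRNAs that every array detected (factors 0.810 to 1.30). The floor for log2 was 0.810, the smallest scaled signal with a detection flag, and no scaled signal lay under it. Detection on 4 or more arrays left 171 miRNAs for limma 3.58.1 (R 4.3.3, lmFit with eBayes, no block, 2-sided, Benjamini-Hochberg over all 171). The fit was tested on simulated arrays. Exact permutation tests over arrays were 2-sided. The number of arrays limits the precision. The members and lists were chosen with earlier results of these data known. Named miRNAs are the members, the 3 most like miR-181a, and listed markers; miR-27a, miR-107 and let-7i were named after their values were seen. Alternatives were other scalings, the authors' values, another floor, filter and variance prior, replicate and slide-row blocks, and leaving out each array. No genome was used: sequences and loci come from RefSeq tables.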

Additional observations from a re-analysis of the deposited data

Results flagged for a closer look

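Among 4 arrays of a group, the value farthest from its nearest neighbour was set against the group's range, both on the log2 scale. A share above Dixon's 95% critical value, 0.829, was taken as standing apart, which chance gives for about 1 in 20 groups. The rule was applied to miR-181a, miR-181c and the summed signal of each marker list, in both groups. The groups not named below did not exceed it. The summed leukocyte miRNAs of the pregnant arrays had a share of 0.883 and the summed lymphoid and vascular miRNAs one of 0.879, both for pregnant replicate 2, and these lists hold members in common. The summed endothelial miRNAs of the control arrays had one of 0.889, for control replicate 3, which read 1662 where the others read 1763 to 1776. MiR-181a among the pregnant arrays had a share of 0.779, below the limit on the log2 scale, also for pregnant replicate 2. The share depends on the scale, and the unlogged signal was not tested.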

How the results depend on the processing

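The log2 change of miR-181a was negative under 19 of 19 alternatives and that of miR-181c under 18 of 18. The other floor, filters, variance prior and replicate block left the changes at -0.46 and -0.34, so they could not move the sign. All alternatives reuse the same arrays, so these counts are no separate evidence of a fall. MiR-181a passed under 1 of the alternatives, without pregnant replicate 2 (-0.89), and ran from -0.89 to -0.26 when 1 array was left out. It was -0.30 without control replicate 2, and -0.29, -0.26 and -0.40 without pregnant replicates 1, 3 and 4. Over the other alternatives it ran from -0.79 (slide row as a block) to -0.29 (quantile normalization). MiR-181c passed under none, ran from -0.42 to -0.26 when 1 array was left out, and came to -0.19 with scaling to all miRNAs and -0.20 with quantile normalization. The count of miR-181 rows called was 0 to 1 when 1 array was left out. The count of miRNAs called, 8, was 2 with scaling to all miRNAs, 0 with no scaling, 0 with no detection filter, 0 to 19 when 1 array was left out, and 23 when the slide row was a block; the cause was not tested. Same-numbered arrays had correlations of deviations of -0.49 to 0.17, which gave no sign that the numbers pair arrays but cannot exclude it. With the replicate block miR-181a stood at -0.46 (SE 0.23 against 0.42 without it, limma adjusted p = 0.271). MiR-181c then stood at -0.34 (SE 0.098 against 0.13, limma adjusted p = 0.100), and 10 miRNAs were called. The planned ratios of members detected on all 8 arrays were not run because only miR-181a was. A ratio of miR-181c to miR-181a, tried after the data were seen, was dropped because 2 of its 8 values rest on bounds. Detection limits miR-181b, miR-181d and miR-181a*, for which no change can be given.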
